A study of Drosophila melanogaster with 3 samples.

Results

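The peaks described here are those of the product of CG12219, a fly gene known by its annotation number, that lay inside introns close to transcription start sites (TSS). Chromatin immunoprecipitation followed by sequencing (ChIP-seq) gave 4187 peaks that passed the irreproducible discovery rate (IDR) step, a filter on how well replicates rank the same peaks. A peak was kept when its summit lay more than 500 and at most 2000 bp from the nearest annotated start site, inside a gene and in no annotated exon of any gene. This rule kept 691 of the 4187 peaks (16.5%, exact binomial 95% interval 15.4 to 17.7%). No measured value entered the rule beyond a peak's presence in the IDR list. The samples were whole Drosophila melanogaster embryos of mixed sex, 0 to 18 h old, from a transgenic line in which CG12219 carries enhanced green fluorescent protein at the C-terminal end. There are 3 biological replicates per the labels, all in 1 group, without another genotype, treatment or stage. A line of free text names every sample as input control, but the assay and antibody labels and the peak lists are those of immunoprecipitations, and they are treated here as such. No mock immunoprecipitation was used here, and a whole-embryo sample mixes all tissues and stages of the collection.

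Introns close to fly promoters are known to hold many enhancers, the DNA elements that set where and when a gene is transcribed. Many fly genes also start transcription at several alternative promoters, so a position in an early intron of a long transcript can lie upstream of the start site of a shorter one. Genes nested inside the introns of other genes are common in this compact genome. A ChIP-seq summit marks where the recovered DNA fragments pile up most, and the protein may touch the DNA itself or be held there by other proteins.

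The genome sequence at the 4 summits of highest signal among the 691 gives a view of what these sites look like. Each line holds the summit and 50 bp on either side of it, from the plus strand of the RefSeq genome in dm6 coordinates, and capitals mark copies of 10 A+T-only words of 6 bases that are described further on.
CG11050 intron, chr2L:6612652-6612752: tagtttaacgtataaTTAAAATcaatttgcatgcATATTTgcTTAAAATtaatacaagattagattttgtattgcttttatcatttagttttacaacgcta
ush intron, chr2L:481035-481135: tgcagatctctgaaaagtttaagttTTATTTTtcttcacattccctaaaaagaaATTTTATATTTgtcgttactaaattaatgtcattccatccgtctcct
Lk6 intron, chr3R:11760995-11761095: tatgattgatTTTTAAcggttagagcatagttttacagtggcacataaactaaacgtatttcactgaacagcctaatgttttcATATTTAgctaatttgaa
CG9663 intron, chr2L:3302136-3302236: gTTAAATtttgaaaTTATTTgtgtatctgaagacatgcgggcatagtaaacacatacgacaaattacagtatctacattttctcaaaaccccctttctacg
The bases A and T made up 78.2% of the CG11050 window, 71.3% of that in ush, 70.3% of that in Lk6 and 66.3% of that in CG9663.

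A second set of sequences shows a layout found at 40 of the 691 summits, in which a short word appears on both sides of the summit and reads towards it. Each line holds the summit and 125 bp on either side (plus strand, RefSeq genome, dm6), for 3 of the peaks of highest signal with this layout, and capitals mark the word where it reads inwards and lies wholly 26 to 125 bp from the summit. On the left it is ACAGTG or CACTGA, and on the right it appears as the reverse complement, CACTGT or TCAGTG.
NFAT intron, chrX:13640378-13640628: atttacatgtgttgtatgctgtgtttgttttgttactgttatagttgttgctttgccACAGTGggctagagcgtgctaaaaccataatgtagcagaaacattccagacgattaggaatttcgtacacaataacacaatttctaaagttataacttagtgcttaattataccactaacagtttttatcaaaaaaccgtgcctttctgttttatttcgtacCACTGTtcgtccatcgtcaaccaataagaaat
for intron, chr2L:3655689-3655939: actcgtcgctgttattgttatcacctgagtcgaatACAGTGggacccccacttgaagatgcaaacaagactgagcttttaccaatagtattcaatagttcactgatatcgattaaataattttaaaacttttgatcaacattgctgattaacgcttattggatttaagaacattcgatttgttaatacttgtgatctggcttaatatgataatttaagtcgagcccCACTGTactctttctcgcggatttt
prage intron, chrX:1830633-1830883: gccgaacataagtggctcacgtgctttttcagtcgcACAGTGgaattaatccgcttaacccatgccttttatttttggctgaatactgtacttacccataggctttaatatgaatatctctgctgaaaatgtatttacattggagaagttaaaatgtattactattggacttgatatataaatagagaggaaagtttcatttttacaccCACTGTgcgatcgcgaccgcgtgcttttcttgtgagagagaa
In all 3 the capitals on the left are ACAGTG and those on the right its reverse complement. The sequence in for also holds an inward CACTGA that reaches closer to the summit than 26 bp and is left in lower case. How often the layout occurs is given with the sequence results.

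Depth is unknown for these libraries, since the files hold no read counts. Each replicate list and the pooled list hold 30000 calls, peaks and background together, and the signal value was used only to rank calls within a list. A replicate's top calls are its 4187 highest in signal, the number of IDR peaks. Intervals on shares are exact (Clopper-Pearson) and cover counting error only, and p-values over peaks are about a single set of peaks, with no measure of how embryos vary.

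Intronic summits thinned out with distance from a start site across the window. Counted in each replicate's own top calls, they numbered 83.1 ± 4.40 per Mb of intron beyond 500 and up to 750 bp (SD, n = 3 replicates), with 78.1, 86.5 and 84.7 in replicates 1, 2 and 3. Beyond 1750 and up to 2000 bp they numbered 48.6 ± 3.84 per Mb, with 49.1, 44.6 and 52.2. The 3 values at the nearer distance all lay above the 3 at the farther one, although the step from 1500 to 1750 bp (44.4 ± 1.19) was the lowest in the window. Closer in, at 250 to 500 bp, the density was 97.9 ± 13.4 per Mb, and beyond the window, at 2000 to 3000 bp, it was 36.8 ± 0.934. In the IDR list itself the density fell from 80.3 to 45.2 per Mb over the same steps. Pooled calls below the IDR list that met the same rule numbered 3851 and went from 367 to 316 per Mb. The introns that meet the rule cover 11.4 Mb, or 8.32% of the 7 chromosomes, and held 60.4 IDR summits per Mb against 30.4 over the chromosomes as a whole. The lower pooled calls numbered 336 per Mb in the same introns. Their density over the chromosomes is not given here, so whether the excess is particular to IDR peaks was not tested.

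**Figure D1:**
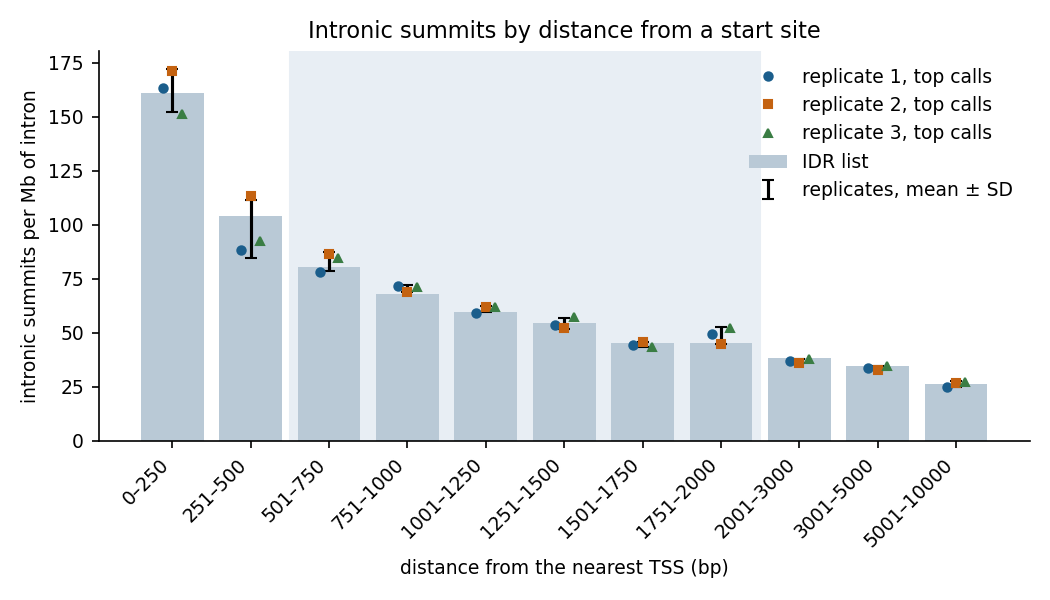
Intronic summits per Mb of intron (vertical axis) by distance from the nearest start site in bp (horizontal axis). Bars give the IDR list, points the top calls of each replicate, whiskers their mean ± SD, and shading the window of the rule, in which the density fell from 83.1 to 48.6 per Mb.

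Peaks on both sides of the window's limits are given here as a description. The 86 intronic peaks over 400 and up to 500 bp away had a median IDR rank of 1742, and the 84 peaks over 500 and up to 600 bp away one of 1930. At the far limit, the 28 peaks over 1900 and up to 2000 bp away had a median rank of 1474 and the 27 over 2000 and up to 2100 bp away one of 2223. The nearest of the 691 lay at -502 bp from a start site of Fim (X, 17291976 to 17292365, rank 1133), a gene for the actin-bundling protein fimbrin, negative offsets being upstream. The farthest lay at -1999 bp from a start site of Hnf4 (2L, 8694204 to 8694593, rank 2369), which encodes a nuclear receptor of lipid metabolism. The Fim peak ranked 1475, 976 and 1269 in replicates 1, 2 and 3, and the Hnf4 peak 1868, 4023 and 1531. The median distance over all 691 was 1030 bp.

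Most of these peaks sat downstream of a start site of their own gene. The nearest start site belonged to the gene around the summit and lay upstream of it in 409 cases (59.2%). In 176 cases (25.5%) it was a start site of the same gene further along, so the summit lay upstream of an internal promoter. In the remaining 106 cases (15.3%) it belonged to another gene, nested or neighbouring. Protein-coding genes hosted 683 of the 691 summits, and 71 summits lay in more than 1 gene. Downstream of the nearest start site, of whichever gene, lay 63.5% of the 691 and 65% of the lower pooled calls that met the rule, and the difference of -1.46 points did not pass the threshold of 0.05 (p = 0.462 by a two-sided Fisher's exact test). The replicates' own top calls that met the rule numbered 696, 707 and 725, of which 63.2%, 64.2% and 64.0% lay downstream.

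First introns held more of them than of the lower calls. A first intron of at least 1 transcript held 576 of the 691 summits (83.4%), against 75.7% of the 3851 lower calls, 7.61 points more (p = 7.82e-06 by the same exact test). Among the replicates' own top calls the shares were 83.9%, 82.2% and 83.9%, each above that of the lower calls. The introns had a median length of 4460 bp and ran from 140 to 73902 bp, and the lower calls lay in introns with a median of 4871 bp.

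The nearest start site itself often held no peak. An IDR summit lay within 500 bp of the nearest start site of 149 of the 691 (21.6%), against 18.2% for the lower calls (3.33 points, exact p = 0.0441 by the same test). With start sites of protein-coding genes only, the difference was 3.06 points and no longer passed the threshold (exact p = 0.0710). It grew to 7.42, 9.26 and 6.89 points when replicates 1, 2 and 3 were left out in turn. Another IDR summit of any kind lay within 2000 bp of 303 of the 691 (43.8%), against 27.7% of intronic IDR peaks farther than 2000 bp from a start site and 30.0% of all IDR peaks. By the rule the 691 lie closer to start sites, where IDR summits are densest, than those deeper peaks. The gap between these 2 groups thus follows in part from how they were defined. For 39 of the 691 (5.64%) another IDR summit lay within 250 bp, so that both can match the same call in a replicate.

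By rank these peaks spread over the whole IDR list. Their ranks ran from 2 to 4171 with a median of 1948, and 366 (53%) were among the 2093 IDR peaks of highest signal, which are 50% of the list. The lowest lay in an intron of Pepck2 (2R, 18528355 to 18528744), a phosphoenolpyruvate carboxykinase gene, and ranked 11791, 2157 and 8340 in the replicates. X held 166 of the 691 (24.0%, interval 20.9 to 27.4%), against 18.1% of all IDR peaks, and 2L held 104 (15.1%, interval 12.5 to 17.9%), against 19.4%. The other large arms held 133 on 2R (19.2% against 18.3%), 124 on 3L (17.9% against 20.6%) and 164 on 3R (23.7% against 23.3%). Neither chromosome 4 nor Y held any, which allows a share of up to 0.532% each by the exact interval, and chromosome 4 held 0.310% of all IDR peaks and Y none. The share of eligible intron on each arm is not given here. Of the X peaks, 10 lay in the gene CG1677, and the intervals take no account of such clusters.

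Nearly all of the 691 had a call nearby in each replicate. A call of any rank lay within 250 bp for 688 in replicate 1, 688 in replicate 2 and 681 in replicate 3. IDR peaks are chosen for agreement between replicates, so these counts follow in part from that choice. The same counts for all IDR peaks are not given here, and nothing particular to the 691 is read from them. Among the top calls of replicate 1 were 540 (78.1%, against 76.6% of all IDR peaks), of replicate 2 were 603 (87.3% against 86.7%) and of replicate 3 were 595 (86.1% against 83.2%). All 3 replicates held 439 among their top calls (63.5% against 60% of all IDR peaks). Peaks within 500 bp of a start site did so in 61.0% of cases (2.53 points less, adjusted p = 0.251 by a two-sided Fisher's exact test). Intronic peaks farther than 2000 bp did so in 57.5% (6.08 points, exact adjusted p = 0.0258). That last call was lost without replicate 2 (4.34 points, exact adjusted p = 0.0732), without replicate 3 (4.28 points, 0.103), among the peaks of higher signal (0.795 points, 0.650) and with summits matched within 100 bp (3.35 points, 0.261).

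The strongest of these peaks lay in genes of unlike function. The peak of rank 2 in the IDR list (2L, 6612418 to 6612920) sat in an intron of only 140 bp of CG11050, a gene known by its annotation number, 1015 bp downstream of its start site. It ranked 5, 2 and 3 in replicates 1, 2 and 3. Rank 6 (2L, 480884 to 481298) lay in the first intron of ush, which encodes the GATA factor partner U-shaped, and 1397 bp upstream of cbt, which encodes a zinc finger transcription factor. It ranked 8, 3 and 11, and a separate peak at the cbt start site stood at rank 83. Rank 10 (3R, 11760875 to 11761243) lay in the first intron of Lk6, a kinase gene whose product phosphorylates the translation factor eIF4E, 966 bp upstream of an internal start site. It ranked 10, 9 and 10, so the 3 replicates placed each of these 3 peaks among their 11 highest calls.

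The next in signal included the following genes. Rank 23 (X, 13640324 to 13640705) lay 1672 bp upstream of an internal start site of NFAT, a transcription factor gene, and ranked 25, 27 and 22 in the replicates. Rank 24 (2L, 16351047 to 16351420) lay in introns of chif and Hyls1, which overlap there. Chif is the fly relative of the replication kinase activator Dbf4, and the peak ranked 28, 21 and 41. Rank 25 (3L, 14759325 to 14759714) lay 1538 bp downstream of a start site of Trl, which encodes GAGA factor, a protein that binds GA repeats and opens chromatin, and ranked 56, 22 and 29. Rank 60 (2R, 21703169 to 21703649) lay where HmgD and HmgZ overlap, genes for HMG box proteins that bend DNA, and ranked 57, 62 and 56. Rank 61 (2R, 10808215 to 10808584) lay 533 bp into wde, whose product Windei works with the histone methyltransferase Eggless, and ranked 48, 58 and 80. The HmgD and HmgZ peak and the wde peak stood apart in base composition, with 55.4% and 49.5% A+T.

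The rest of the 20 highest lay in genes of other kinds. Rank 40 (2L, 3655657 to 3655975) lay 1139 bp into for, which encodes a cyclic GMP-dependent kinase known for its effect on foraging behaviour, and ranked 39, 37 and 57. Rank 69 (X, 4324832 to 4325135) lay 1377 bp into norpA, the phospholipase C gene of fly vision, and ranked 71, 91 and 52. Rank 119 (2R, 10159559 to 10159856) lay in the first intron of KCNQ, a potassium channel gene, 775 bp upstream of mlt, and ranked 110, 148 and 118. The others lay in CG9663, CG32772, Reph, CG9135, CG9837, CG31635, CG3726, CG4496 and lncRNA:CR44810, at ranks 17, 21, 22, 56, 57, 62, 73, 92 and 112. All 20 stood at rank 149 or above in each replicate. Since they were picked by signal in the pooled replicates, high ranks in the single ones follow in part from the choice.

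**Figure D2:**
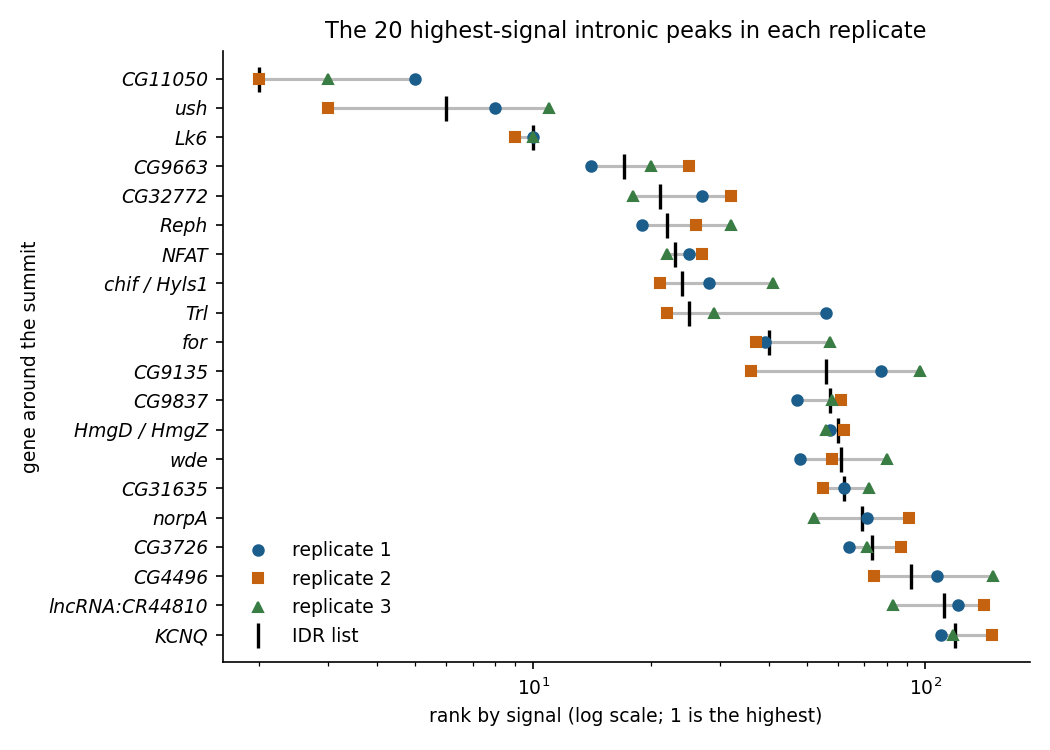
Rank by signal (horizontal axis, log scale) of the 20 highest-signal peaks among the 691, named by the gene around the summit (vertical axis), in the IDR list and in each replicate. The CG11050, ush and Lk6 peaks ranked 11 or higher in every replicate, and all 20 ranked 149 or higher.

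A few long genes held several of these peaks. The 691 summits fell in 607 genes, of which 496 held 1, 83 held 2 and 28 held 3 or more. The largest number was 10, in the overlapping X genes CG1677 and lncRNA:CR44357, 8 of them within 1 intron of 73902 bp. Smaller genes lie inside CG1677, among them Dok, CBP, CG42780, brk and unc-119. The strongest of the 10 ranked 145 (X, 7324864 to 7325186) and lay 834 bp downstream of a start site of the nested gene Dok, an adaptor protein gene, with replicate ranks of 188, 129 and 177. The next, rank 178 (X, 7336195 to 7336511), lay 993 bp upstream of CBP, which encodes a calcium-binding protein, and ranked 166, 188 and 256. Others lay at ranks 1085 and 1601 upstream of unc-119 and at ranks 1654 and 3442 upstream of brk, the gene for the repressor Brinker of the Dpp pathway. For those 8 the nearest start site belonged to an inner gene that the summit itself was not in.

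Tlk, the gene for Tousled-like kinase, held 5 peaks up- and downstream of its start sites, at ranks 560, 650, 1410, 1989 and 3894. CHES-1-like, a forkhead factor gene, held 4 at ranks 137, 279, 451 and 866, each of which also lay among the 1185 highest calls of every replicate. NFAT held 4, all upstream of internal start sites, at ranks 23, 416, 580 and 2682. In CG42258, Dys, SNF4Agamma and shn there were 4 each. Among the genes with 3 were Trl and psq, whose products both bind GA repeats, HmgZ, and tai, which encodes a coactivator of the ecdysone receptor. Some of these are not separate in the replicates: the peaks of ranks 418 and 2622 in CG42258, 437 and 2836 in Dys, and 1716 and 2487 in psq each matched the same call in all 3 replicates.

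Lists of signalling pathways other than Notch held such peaks in a larger share than all genes, and the Notch list, with 1 gene of 17, lay on either side of that share depending on the replicate. Of the 9015 protein-coding genes with any intron that meets the rule, 588 (6.52%) held a peak. The gene lists were compared with that share as counts only, without a test, since lists differ in how much intron they offer. The peaks per Mb of eligible intron are therefore given as well, against 57.4 for all protein-coding genes. Intron shared by overlapping genes counts once per gene in that value (11.9 Mb), which lowers it. With each base counted once (11.4 Mb), the density was 60.4. The signalling lists other than Notch ranged from 79.2 (Wingless, 7 peaks) to 224 per Mb (Hedgehog, 3 peaks). The Wingless, ecdysone (80.0, 10 peaks) and Hippo (88.9, 5 peaks) lists lay nearer to all genes by density than by share.

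Genes of epidermal growth factor (EGF), fibroblast growth factor (FGF) and Ras signalling, which carries growth and fate signals from receptor tyrosine kinases to the nucleus, held peaks in 13 of 43 cases (30.2%, 111 per Mb). In the top calls of replicates 1, 2 and 3 the share was 34.9%, 32.6% and 34.9%. Among the ligand genes were ths, an FGF gene (rank 633), Krn (rank 2712) and Pvf3 (rank 1449). Star, which moves the EGF ligand through the secretory path, had a peak of rank 447 at 1834 bp into the gene S (2L, 1075853 to 1076080, replicate ranks 215, 592 and 440). The rhomboid protease genes ru and stet, whose products cut EGF ligands, held peaks of ranks 1804 and 1628. The ru peak also lies in Ptp61F, a gene of another list below, and a peak in overlapping genes counts for each gene and list. Inside the cell, the adaptor gene drk held one of rank 410 and the kinase gene Raf one of rank 3966. At the nuclear end, the ETS factor gene pnt held 2 (ranks 2275 and 2519). The highest in the list was rank 238 (2R, 18671616 to 18671880), 1786 bp into edl, which encodes an inhibitor of ETS factors, with replicate ranks of 260, 238 and 233. The feedback inhibitor genes aos and sty held peaks of lower signal, at rank 1963 and at ranks 2510 and 3265.

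The Dpp and activin pathway, the fly branch of bone morphogenetic protein and TGF-beta signalling, held peaks in 6 of 23 genes (26.1%, 177 per Mb, and 21.7%, 26.1% and 26.1% in the replicates). These covered both receptor types, with tkv (rank 2976) for type I and put (rank 2274) and wit (ranks 496 and 1366) for type II. The transducers were Mad and Smox (rank 3755). The Mad peak (2L, 3153280 to 3153545) stood at rank 273, 667 bp upstream of an internal start site, and ranked 204, 425 and 187. The nuclear factor gene shn held 4, led by rank 284, which ranked 415, 277 and 307.

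Further pathways showed the same kind of share. Ecdysone receptor and response genes, which time moulting and metamorphosis, held peaks in 7 of 23 cases (30.4%, 80.0 per Mb, and 34.8%, 39.1% and 26.1% in the replicates). They were the receptor gene EcR, the coactivator gene tai, the response genes br, Eip78C, Hr3 and Hr4, and ImpL2. ImpL2, whose secreted product binds insulin-like peptides, had the highest signal of these (3L, 4228233 to 4228524, rank 132, and 151, 132 and 143 in the replicates). Jun kinase (JNK), JAK-STAT, Toll and stress genes held peaks in 10 of 37 cases (27.0%, 104 per Mb). The strongest lay 1059 bp into the chaperone gene Hsp83 at rank 326, and ranked 282, 344 and 363. Among the others were the JNK pathway kinase gene msn (rank 763), its Fos transcription factor gene kay (rank 1679) and its phosphatase gene puc (rank 3882). Hedgehog genes held peaks in 3 of 12 cases (25%, 224 per Mb in 0.0134 Mb), at the receptor gene ptc, the coreceptor gene boi and the kinase gene dco. Wingless genes did in 6 of 28 (21.4%, 79.2 per Mb), including the receptor genes fz, fz3 and arr and the kinase gene sgg. Insulin and TOR growth genes did in 6 of 32 (18.8%, 131 per Mb), with the insulin receptor gene InR at rank 473 beside Lk6 and ImpL2.

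Muscle and RNA-binding protein genes also lay above 6.52%. Muscle genes held peaks in 10 of 49 (20.4%, 65.2 per Mb), among them the myoblast fusion genes kirre, mbc and rols and the talin gene rhea. RNA-binding protein genes held them in 11 of 52 (21.2%, 65.7 per Mb), led by the growth regulator brat at rank 184 (2L, 19165007 to 19165295, and 261, 156 and 288). Sxl, the master gene of fly sex determination, held one of rank 500. For muscle and RNA-binding genes the density per Mb lay close to the 57.4 of all genes. Polycomb, trithorax and chromatin genes held peaks in 8 of 58 cases (13.8%) but 200 per Mb, with Trl, simj (rank 129) and gpp (rank 508) leading.

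Other lists lay closer to the background or below it. Patterning genes held peaks in 4 of 45 cases (8.89%, 60.3 per Mb), namely ush, grh, zfh1 and Abd-B, and Notch pathway genes in 1 of 17 (5.88%, 26.2 per Mb), at neur. Ion channel and synapse genes held them in 2 of 59 (3.39%, 10.3 per Mb), at Syn and Shaw, in 0.195 Mb of eligible intron. That list does not hold every channel gene, and KCNQ, Irk1, Elk, Shawl, Trpm and Piezo, which are outside it, also held peaks, so its share is that of the listed genes alone. Cell adhesion and axon guidance genes held 29.2 per Mb in 0.239 Mb. No peak fell in the 27 cytosolic ribosomal protein genes, 22 mitochondrial ribosomal protein genes or 148 chemoreceptor genes with eligible intron, which offer 0.00534, 0.00881 and 0.05 Mb. So little intron would hold few peaks at the density of all genes, and nothing is read from these zeros. In these 3 lists the share was 0% in each replicate as well.

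The remaining lists held between 1 and 7 genes with a peak. Hippo genes did in 4 of 22 cases (18.2%, 88.9 per Mb, and 9.09%, 18.2% and 18.2% in the replicates), led by crb at rank 887 (3R, 24295982 to 24296169). Vesicle traffic genes did in 6 of 49 (12.2%, 98.5 per Mb, and 20.4%, 10.2% and 14.3%), led by the recycling endosome gene Rab11 at rank 400. Zinc finger and BTB factor genes did in 7 of 65 (10.8%, 59.8 per Mb), insulator genes in 2 of 18 (11.1%, 342 per Mb in 0.0117 Mb) and neural fate genes in 4 of 27 (14.8%, but 35.6 per Mb), led by ush, Trl and the RNA-binding protein gene elav (rank 973). Adhesion and guidance genes did in 7 of 61 (11.5%), led by the netrin receptor gene fra at rank 243. Cell cycle genes lay below 6.52% by share, at 2 of 43 (4.65%, led by Cdk4 at rank 1048), but above 57.4 by density, at 80.8 per Mb. Glycolysis and oxidative phosphorylation genes stood at 1 of 35 (2.86%, 33.4 per Mb, Cyt-c-p, rank 1328) and translation factor genes at 1 of 41 (2.44%, 41.8 per Mb, eIF4EHP, rank 3768), each with 1 peak. The cell cycle list stood at 9.30%, 6.98% and 6.98% in the replicates and the glycolysis list at 8.57%, 2.86% and 11.4%. All protein-coding genes stood at 6.53%, 6.56% and 6.69%. The cell cycle list thus lay above them in every replicate and the glycolysis list in replicates 1 and 3. The Notch list stood at 11.8%, 5.88% and 5.88%, and the ion channel and synapse list at 6.78%, 3.39% and 1.69%. Both lay above all protein-coding genes in replicate 1 alone.

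**Figure D3:**
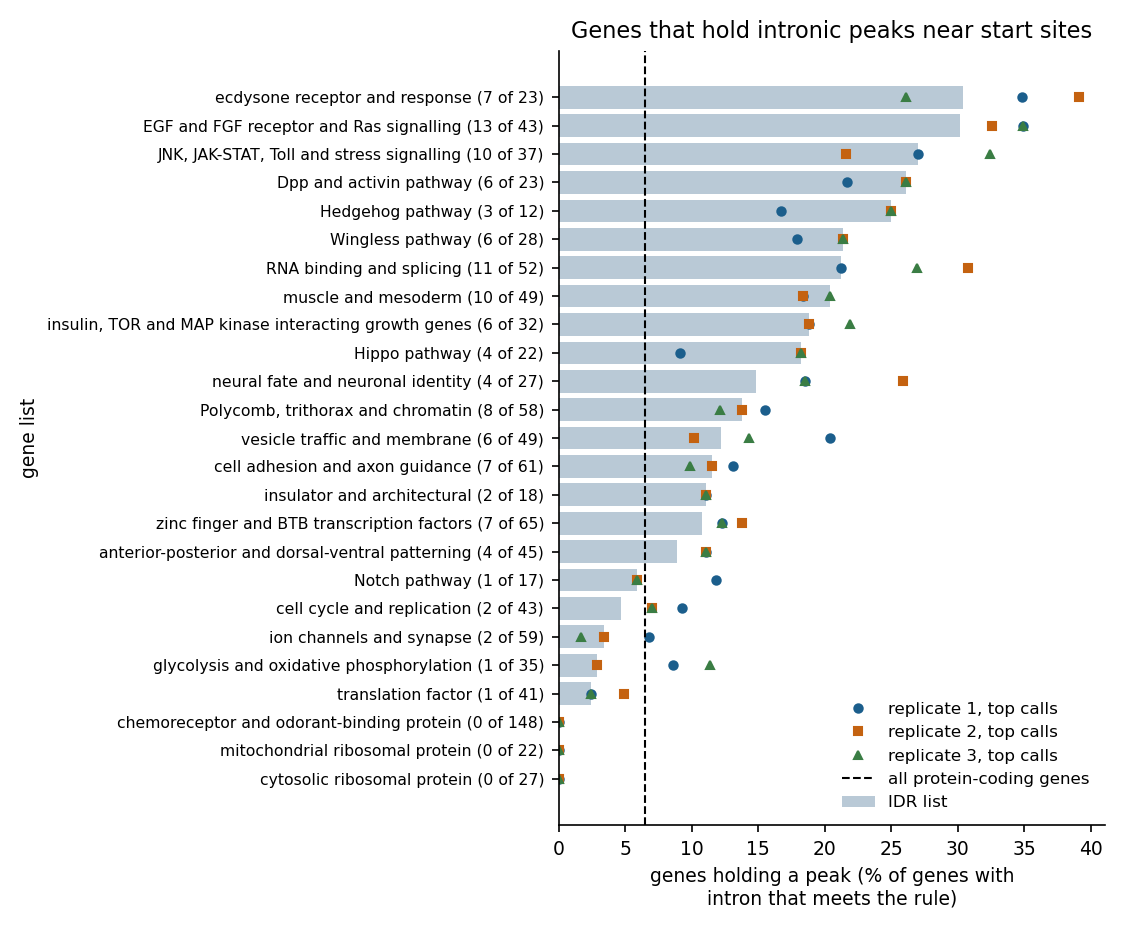
Share of the genes in each list that held a peak, in percent of the genes with intron that meets the rule (horizontal axis), for the gene lists described (vertical axis, with counts). Bars give the IDR list, points the top calls of each replicate, and the dashed line the 6.52% of all protein-coding genes, above which the EGF, FGF and Ras list stood in every replicate.

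The summits were rich in A and T. Within 50 bp of the summit, A+T averaged 66.0% ± 8.19 (SD over 691 peaks), with a median of 67.3%, against 61.4% over all introns that meet the rule. An A+T content of 60% or more was found at 558 summits (80.8%), against 73.3% of all IDR peaks. The lower pooled calls reached it in 49.3% (31.4 points less, Fisher's exact test, two-sided, adjusted p = 6.54e-56) and peaks within 500 bp of a start site in 66.5% (14.3 points less, exact adjusted p = 1.44e-12). Intronic peaks farther than 2000 bp reached it in 79.2%, and the difference of 1.51 points did not pass the threshold (exact adjusted p = 0.457). The rule bars exons and start sites from the 691 summits but not from peaks within 500 bp of a start site. What this adds to their gap of 14.3 points was not tested. In 51 bp windows those peaks averaged 64.2% at the summit and 55.8% and 55.9% at 500 bp to either side. The 691 averaged 66.7% at the summit and 58.3% and 58.2% there. The replicates differed here: of their own top calls that met the rule, 64.2%, 83.9% and 73.2% reached 60%, so replicate 1 lay lowest and replicate 2 highest. All 3 lay above the lower calls.

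The rise in A+T was local to the summit. It exceeded the mean of the windows centred 500 bp away on either side at 530 of 683 untied peaks (77.6%, exact sign test, two-sided, p = 1.56e-49), against 74.8% of all IDR peaks, and the mean rise was 7.75 ± 11 points. Some of those flanks touch exons. Among the 420 peaks whose flanks touched no exon, a subset added once the data had been seen, 76.3% rose, by 6.68 ± 10.4 points (exact sign test, p = 7.84e-28). In the replicates' own top calls 64.2%, 81.5% and 71.2% rose. In 51 bp windows the mean was 66.7% at the summit and 56.5% and 56.2% at 200 bp to either side, which is below the 59.3% at 1000 bp downstream on the plus strand.

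**Figure D4:**
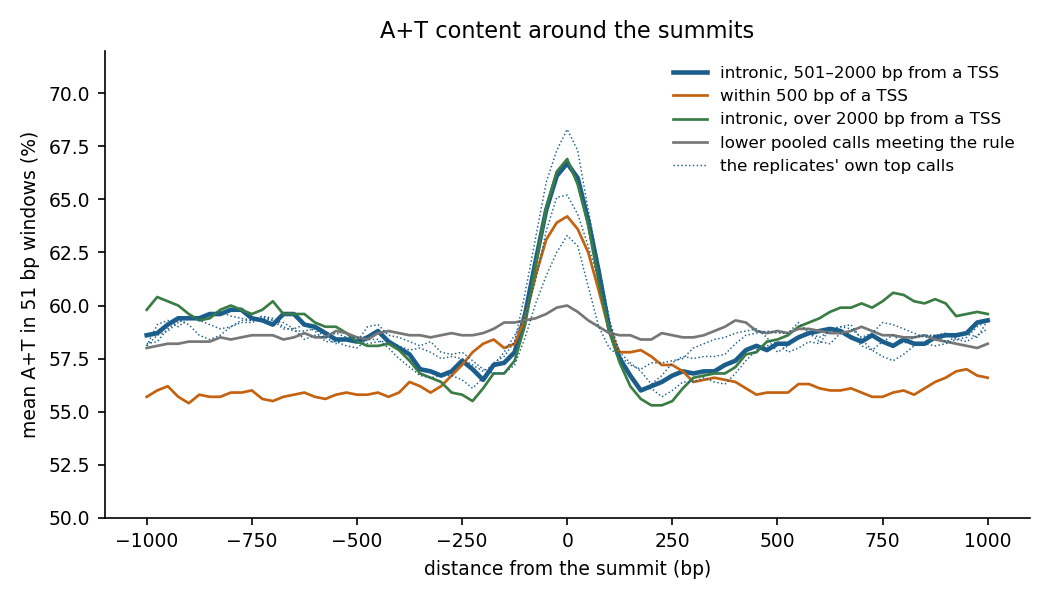
Mean A+T in 51 bp windows (vertical axis, percent, starting at 50) by distance from the summit in bp (horizontal axis). Solid lines give the 691 peaks and 3 comparison groups and dotted lines the top calls of each replicate that met the rule. The 691 reach 66.7% at the summit and the lower pooled calls 60%.

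Short words of A and T marked the summits accordingly. The 10 words of 6 bases that led at the other 3496 IDR peaks were taken as they stood to the 691, within 50 bp of the summit and on both strands. All 10 were more frequent there than in the flanks at 500 bp (exact McNemar tests, adjusted p from 8.50e-11 to 4.50e-05). AATATT occurred at 17.7% of summits against 7.89% of flanks, and TAAATA at 29.4% against 14.8%. The other 8 stood at 18.7% to 30.2% of summits, with AAATAT at 29.4%, TTAAAA at 27.9%, ATTTAA at 23.9%, AATATA at 19.1%, AAAATA at 28.8%, ATATTA at 18.7%, ATTTTA at 27.6% and AAATAA at 30.2%. All consist of A and T alone, so they move with the A+T content of the windows, and what each adds to it was not tested. Of the 10 leading words of 8 bases, TATTTTAA, TAAAATAA and AAAATATT passed (exact McNemar adjusted p = 0.00227, 0.00227 and 0.00170). None of the 10 passed without replicate 2.

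Another kind of word appeared in a wider window. With the window widened to 100 bp on either side of the summit, the words of 8 bases that led at the other IDR peaks were mostly no longer made of A and T alone: CACTGAGA, CACAGTGG and TACACTGA headed the list, and AAAATATT was the 1 word of that kind left in it. Of the 10, 8 were also more frequent at the 691 summits than in their flanks (exact McNemar tests on words ranked without these 691 peaks). CACAGTGG occurred at 35 summits (5.07%, interval 3.55 to 6.97%) against 0.868% of flanks (adjusted p = 2.43e-05, exact McNemar test). CACTGTGC, whose reverse complement GCACAGTG shares 7 bases with CACAGTGG, occurred at 36 (5.21%) against 1.01% (exact adjusted p = 1.27e-04), and 28 summits had both. CACTGAGA occurred at 29 (4.20%, interval 2.83 to 5.97%) against 0.724% (exact adjusted p = 1.29e-04). Any of the 3 was found at 71 summits (10.3%), at 9.65% of all IDR peaks and at 4.52% of the lower pooled calls. These 3 were taken from the 10 for their lowest p in the 691, which can raise the share of the 691 beside the other groups.

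These words read mostly towards the summit. Of 31 copies of CACTGAGA within 100 bp of the 691 summits, 28 read towards the summit and 3 away from it. Of 40 copies of CACAGTGG, 35 read towards the summit and 5 away, and of 40 copies of GCACAGTG 33 read towards it and 7 away. Inward copies went on beyond 100 bp: CACAGTGG stood at 27.5 sites per 1000 summits at 75 to 100 bp, 20.3 at 100 to 125 bp and 5.79 at 175 to 200 bp, and GCACAGTG at 27.5, 18.8 and 4.34. The lower pooled calls showed less of this order, with 42 of 62 copies of CACTGAGA reading inwards. Each word is written here on the strand that read towards the summit in most of the IDR peaks outside the 691. Peaks at start sites (36 of 41 copies of CACTGAGA inwards) and deeper intronic peaks (55 of 57) are among those. Their inward majority thus follows in part from that choice of strand. Among the replicates' own top calls that met the rule, CACAGTGG occurred at 4.74%, 5.37% and 5.24% of summits (5.12% ± 0.334, SD, n = 3 replicates) against 0.986% ± 0.0504 of flanks. For CACTGAGA the shares were 2.44%, 4.10% and 4.41% (3.65% ± 1.06 against 0.683% ± 0.158), and replicate 1 was the lowest. These directions were examined after the data were seen and are given without a test.

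**Figure D5:**
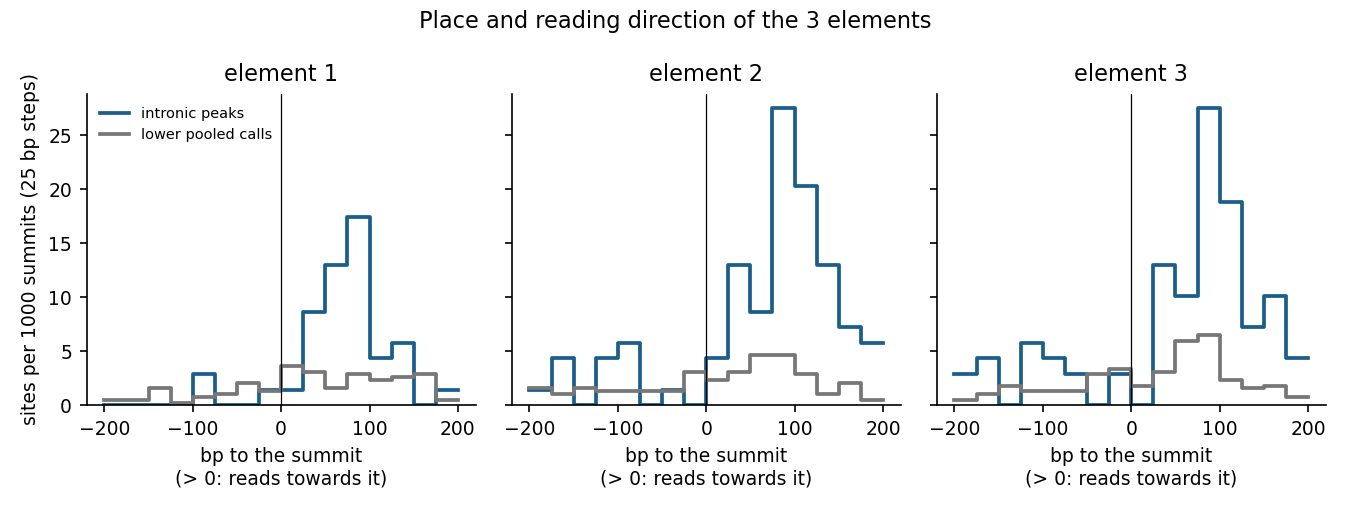
Sites per 1000 summits in 25 bp steps (vertical axis) by distance from the summit in bp (horizontal axis), positive where the word reads towards the summit, for CACTGAGA (element 1), CACAGTGG (element 2) and GCACAGTG (element 3), in the 691 peaks and in the lower pooled calls. In the 691 the sites of CACTGAGA are most frequent at 75 to 100 bp on the inward side, at 17.4 per 1000 summits.

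The 6-base cores of these words, CACTGA and ACAGTG, made the layout on both sides visible. The 3 words were picked on these same 691 summits, and their strand was set on the other IDR peaks. The shares that follow therefore describe the layout and are no separate test of it. Between 26 and 125 bp from the summit, an inward core lay on at least 1 side of 218 of the 691 summits (31.5%), and an outward one at 76 (11%). The inward share was 27.3% of all IDR peaks, 30.7% of deeper intronic peaks and 7.89% of the flanking windows, and the outward share was 10.8% of all IDR peaks. An inward core on both sides was found at 40 summits (5.79%), an outward one on both sides at 2 (0.289%), and 0.507% of flanking windows had the inward pair. The inward pair stood at 2.92% of peaks within 500 bp of a start site, 6.99% of deeper intronic peaks, 4.90% of all IDR peaks and 0.857% of the lower pooled calls, so it is shared with the rest of the IDR list. In the replicates' own top calls it stood at 4.89%, 6.36% and 5.66%.

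The ranks of the 40 peaks with the inward pair are given as a description. Their median IDR rank was 1130, against 1948 for all 691, 29 of the 40 (72.5%) were among the 2093 peaks of highest signal, against 53% of the 691 and 50% of the IDR list. Of the 40, 33 (82.5%) were top calls in every replicate, against 63.5% of the 691 and 60% of all IDR peaks. Their summits averaged 67.4% ± 5.63 A+T, and the one in HmgZ, chosen here for its low value, had 49.5%. The strongest were those in NFAT, for, CG31635 (rank 62, and 62, 55 and 72 in the replicates) and prage (rank 164, and 126, 276 and 114). Developmental genes among the 40 included edl, shn, zfh1 (3R, 30781643 to 30781884, rank 366, and 374, 505 and 287), which encodes a zinc finger homeodomain factor, Sxl and crb, whose product sets apical polarity in epithelia. The gene of each was named from the annotation around the summit and not from any measure of its expression.

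Of the binding words known for other fly factors, none passed as more frequent at these summits than beside them. Motifs were sought by their letters on both strands within 100 bp of the summit, 27 in all. After adjustment 0 of 27 passed in that direction (exact McNemar tests, shares of flanks taken over both sides), although CATATG (11.7% against 7.81%, unadjusted p = 0.00704), TAATTA (17.7% against 12.1%, 0.00996), AGATAA (16.4% against 11.6%, 0.0142) and TGTTTAC (8.39% against 5.28%, 0.0280) were under 0.05 before it. CATATG and TAATTA passed among the peaks of higher signal, TAATTA with a 50 bp window, and AGATAA without replicate 2. The Pho motif GCCAT was less frequent at summits (25% against 30.9%, exact McNemar adjusted p = 0.0307), a call lost in 7 of the alternative settings, with any 1 replicate left out among them. In the same direction, GAGAG (23.9% against 30.4%, unadjusted exact p = 0.00569) and GAGAGAGA (1.59% against 3.91%, 0.00948) did not pass after adjustment (0.0538 for both). The words differ in their own A+T content, and the part that the A+T content of the windows has in these shares was not tested.

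Promoter motifs were rarer than at promoter peaks. By the rule the 691 summits lie over 500 bp from any annotated start site, so their windows reach no annotated core promoter. A lower share of core promoter words thus follows in part from the rule. TATCGATA, the DNA replication-related element, stood at 0.145% of the 691 summits, 3.47% of peaks within 500 bp of a start site and 6.44% of all protein-coding start sites (Fisher's exact test, two-sided, adjusted p = 9.83e-07 against the peaks). GGTCACAC, a core promoter word bound by M1BP, stood at 0.434%, 2.70% and 5.68% (exact adjusted p = 0.00102). The ETS site CCGGAA (3.04% against 6.62%, exact adjusted p = 0.00209) and the GA repeat GAGAGAGA (1.59% against 3.59%, 0.0392) were also less frequent than at promoter peaks, and CATATG (11.7% against 6.73%, 0.00102) and TGANTCA (7.09% against 4.36%, 0.0392) more. Those for TATCGATA, GGTCACAC, CATATG and CCGGAA were made whichever replicate was left out. The call for GAGAGAGA was lost without any 1 of the replicates, and that for TGANTCA without replicate 1 or 3. Without replicate 2, AGATAA and CAGCTG were called as well. None of the 27 differed from the deeper intronic peaks (0 of 27, Fisher's exact tests, with no unadjusted p under 0.05). Against the lower pooled calls, GCCAT (25% against 32.5%, exact adjusted p = 0.00236) and CACACACA (5.50% against 8.85%, 0.0369) were less frequent. Without replicate 2 neither was called, and without replicate 1 or 3 GCCAT alone was.

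The other motifs searched were the GA word GAGAG (23.9% of summits), an A tract of AAAAAAAA (12.9%), the TA repeat TATATATA (3.62%), Zelda's CAGGTAG (0.724%), and the E-boxes CAGCTG (7.67%), CACGTG (1.88%) and CAGGTG (5.64%). There were also TGACGTCA of CRE factors, TAATCC of Bicoid (5.79%), Caudal's TTTATG (25.3%), the Su(H) word TGGGAA (9.41%) and the STAT word TTCNNNGAA (5.93%). The last were AACCACA of Runt factors (2.89%), AGGTCA of nuclear receptors (3.18%), Grainyhead's AACNGGTT (2.60%) and ACAAAG of Sox and TCF factors (14%). They ranged from 0.579% for TGACGTCA to 25.3% for TTTATG, which stood at 0.275% and 14.4% of all protein-coding start sites. GAGAG overlaps GAGAGAGA. A word that is absent from a window says only that these letters are not in it.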

How the data were processed

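ChIP-seq peak lists of 3 biological replicates (1 group) were used, with dm6 coordinates. Per the listing of files that the authors deposited beside each sample, peaks and background were called against a control alignment for each replicate and for the pool, and the authors deposited the peaks that passed IDR. The authors' signal value, of no stated normalization, was used for ranks within each list. Ties were broken by the deposited −log10 q-value, and the deposited summit offset (other) gave the summit position. Aligner, caller and IDR threshold: not given in the sources used here. Depth is unknown, so no interval rests on reads.

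Summits were placed on the Ensembl release 115 annotation (BDGP 6.54, 18277 genes without transposable elements), and sequence came from the RefSeq genome. Top calls are each replicate's 4187 highest in signal, and summits within 250 bp were matched. To leave out a replicate, the 4187 pooled calls with the lowest mean rank in the other two took the place of the IDR list. A+T and words of 6 and 8 bases used 50 bp on either side of the summit and motifs 100 bp, with flanks centred 500 bp away, 1 of them drawn at random with a fixed seed for motifs and words. Tests were Fisher's exact, exact McNemar and exact sign tests, two-sided, with Benjamini-Hochberg adjustment within a family at 0.05. They were tested on simulated data. Python 3.11.15, numpy 2.4.6, scipy 1.17.1 and matplotlib 3.10.9 were used.

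Genes were named by this rule: the 20 peaks of highest signal, the highest in each gene list, genes with 3 or more peaks, and the extremes in signal and distance. Other list members, and the genes with the inward word pair, were named after their values were seen. Some results that the rule would name are not reported here. The peaks and lists were chosen with earlier results of these data known. Of 1010 list symbols, 35 were matched by an older symbol and 23 were not matched.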

Additional observations from a re-analysis of the deposited data

How the results depend on the processing

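Of 117 alternative values over 17 results, 89 kept their direction and side of the threshold, or stayed within 1.5 times the reported count, 23 counts moved, 5 calls were lost and 0 reversed. The set numbered 366 among the IDR peaks of higher signal. The excess over deeper intronic peaks among the top calls of all 3 replicates was 0.795 points there, 3.35 points with summits matched within 100 bp, and 4.28 to 4.88 points with 1 replicate left out. The excess with a peak at the nearest start site was 3.06 points with start sites of protein-coding genes only. Motifs more frequent than in flanks numbered 2 among the peaks of higher signal, 1 with 50 bp windows and 0 to 1 with 1 replicate left out. Those less frequent numbered 0 among the peaks of higher signal, with protein-coding start sites only, with flanks at 1000 bp, with 50 bp windows and with any 1 replicate left out (0 to 0). Motifs that differed from promoter peaks numbered 3 among the peaks of higher signal and 2 with 50 bp windows, and those that differed from lower calls 0 in both and 0 to 1 with 1 replicate left out. Words of 8 bases that passed numbered 0 with start sites at most 1500 bp away, 8 among the peaks of higher signal, 7 with flanks at 1000 bp, 8 with 100 bp windows, and 0 to 2 with 1 replicate left out. The cause was not tested. Without replicates 1, 2 and 3 the rule kept 694, 713 and 687 peaks, of which 588, 580 and 578 were among the 691. No paired analysis was possible because there is 1 group. Without read counts, what depth limits cannot be given.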

Other observations

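A few of the 691 peaks had no call within 250 bp in the 30000 calls of a replicate. The one of highest signal lay in an intron of tsr, which encodes the actin-severing protein cofilin, at IDR rank 300. It ranked 222 in replicate 1 and 332 in replicate 2 and was not found in replicate 3. The peak in wun, at rank 843, was not found in replicate 1. The peak of rank 3265 in sty, the gene for the receptor tyrosine kinase inhibitor Sprouty, was found in replicate 3 alone, at rank 839.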
